A study of Mus musculus with 9 samples.

Results

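Arterial endothelial cells with dim Nestin-GFP (Nestin-GFPdim AECs) were set against sinusoidal endothelial cells (SECs) of mouse bone marrow, gene by gene across the transcriptome. The libraries were chosen by their labels, 3 of Nestin-GFPdim AECs and 3 of SECs, numbered 1, 3 and 4 in each group, so that 6 of the 9 libraries of the series entered and the 3 of Nestin-GFPbright AECs stayed out of the fit. All cells came from bone marrow of Nestin-GFP transgenic mice, in which GFP is driven by regulatory sequence of the Nestin gene and not by an arterial gene. Nestin-GFPdim AECs were sorted as CD45- CD31+ PDPN- Sca-1high cells with low GFP, and SECs as CD45- CD31+ PDPN+ Sca-1low cells, and the study's gating of marrow endothelium also left out cells with the erythroid antigen Ter119. SECs in the study were themselves uniformly dim for GFP. No treatment or deletion was applied to either group. RNA from few cells was amplified into cDNA, and the deposited value of each gene is RPKM, its reads per kilobase of length scaled to the size of the library, on a log2 scale. The labels do not say whether libraries of a group came from separate mice. The study states in general that its n counts mice, and gives n = 3 per group for its stem cell factor and Cxcl12 RPKM. It does not say whether a library was a single mouse or a pool. The p-values measure the spread between these libraries, which may in part be technical.

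Arteries and arterioles bring blood into the marrow through vessels lined by elongated endothelium with a continuous basement membrane. Their endothelium carries ephrin-B2, Notch target genes and the gap junction proteins connexin 37 and connexin 40. Sinusoids are wide, thin-walled and leaky vessels that drain the marrow, take up circulating macromolecules through scavenger receptors, and display the adhesion molecules by which blood cells leave and enter. Marrow endothelium can supply haematopoietic stem cells with secreted factors such as stem cell factor and CXCL12. The study attributed almost all of the endothelial stem cell factor to arterial cells.

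Reads in listed genes numbered 13896190 to 40683904 in the Nestin-GFPdim AEC libraries and 36720449 to 73475550 in the SEC libraries, so that 1 read per kilobase stood for 0.0240 to 0.0710 RPKM in Nestin-GFPdim AECs and for 0.0143 to 0.0255 RPKM in SECs. Between 1619 and 1849 listed genes had no read in a Nestin-GFPdim AEC library, against 583 to 1209 in an SEC library. Nestin-GFPdim AEC replicate 4 had 40683904 reads and 1771 such genes, while SEC replicate 1 had 36720449 reads and 583. What set these numbers was not tested. The first principal component of the 6 libraries held 46.4% of the variance and set Nestin-GFPdim AEC replicate 1 and SEC replicates 1 and 4 apart from the other libraries. Genes of a neutrophil marker list took 13.9, 0.688 and 0.586% of the reads in Nestin-GFPdim AEC replicates 1, 3 and 4, and 8.97, 0.00688 and 4.22% in SEC replicates 1, 3 and 4, so that the first component set apart the 3 libraries with the most neutrophil transcripts. The second component held 33.0% and separated all 3 Nestin-GFPdim AEC libraries, at -22.3, -20.0 and -81.2, from all 3 SEC libraries, at 40.2, 49.6 and 33.7. No p is attached to these components. In bulk libraries, fewer cells of a type and less RNA per cell cannot be told apart.

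Transcripts of the sorted surface proteins were examined first. Pecam1, which encodes CD31, had 137, 377 and 418 RPKM in Nestin-GFPdim AECs and 87.6, 158 and 107 RPKM in SECs, with overlapping ranges (log2 fold change 1.28 ± 0.49, adjusted p = 0.365). Ly6a, which encodes Sca-1, had 1531, 1925 and 3036 RPKM in Nestin-GFPdim AECs and 264, 589.7 and 235 RPKM in SECs. The groups of Ly6a did not overlap, in the direction of the Sca-1 gate, but the difference did not pass the test (log2 fold change 2.64 ± 0.51, adjusted p = 0.0737). Reads of Ly6a and of its close paralogs such as Ly6c1 may be hard to tell apart. Pdpn, the gene of podoplanin, the antigen for which SECs were sorted as positive, had 2, 0 and 0 reads in Nestin-GFPdim AECs and 15, 3 and 0 reads in SECs, and was too low to be tested. Podoplanin transcript was thus close to the limit of detection on both sides of a gate set on its protein. Ptprc, the gene of CD45, had 23.6, 1.85 and 1.73 RPKM in Nestin-GFPdim AECs and 18.6, 0.0752 and 10.7 RPKM in SECs, with the higher values in libraries that also held neutrophil transcripts. Nes, the nestin gene itself, rose in Nestin-GFPdim AECs: it had 5.77, 9.60 and 13.8 RPKM there and 0.760, 0.894 and 0.735 RPKM in SECs (log2 fold change 2.51 ± 0.34, adjusted p = 0.0329).

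Markers shared by all endothelium overlapped between the groups, while those of other cells varied mostly by library. Of 14 pan-endothelial genes, including Cdh5, Kdr, Tek and Erg, limma and voom called 0, 1 had an unadjusted p under 0.05 and 0 had groups without overlap, and their median log2 fold change was -0.057. Cdh5, the gene of VE-cadherin, had 96.3, 231 and 182 RPKM in Nestin-GFPdim AECs and 107, 201 and 129 RPKM in SECs (log2 fold change 0.18 ± 0.41, adjusted p = 0.985). Erythroid genes, mostly globins, took 0.812, 0.00273 and 2.85% of the reads in Nestin-GFPdim AECs and 0.388, 0.00293 and 0.0796% in SECs. The erythroid, neutrophil and B-cell lists all had their lowest SEC share in SEC replicate 3, while B-cell genes took 0.0252 to 0.396% of the reads in Nestin-GFPdim AECs and 0.00396 to 0.198% in SECs. Of 88 tested members of the 8 lists of other cells, limma and voom called 0, and 13 had an unadjusted p under 0.05. Over all 15441 tested genes, 1830 had an unadjusted p under 0.05. With the replicate block, described below, 1 of the 88 was called higher (1.54% of all genes), a B-cell gene, and 7 lower (1.87%). Of these 7, 2 each were in the lymphatic, macrophage and stromal lists and 1 in the pericyte list. The lymphatic list took 0.0124 to 0.0682% of the reads in Nestin-GFPdim AECs and 0.169 to 0.275% in SECs, the macrophage list 0.0452 to 0.190% in Nestin-GFPdim AECs and 0.586 to 0.840% in SECs, and the pericyte list 0.0207 to 0.114% in Nestin-GFPdim AECs and 0.167 to 0.271% in SECs. Megakaryocyte genes took at most 0.0126% in Nestin-GFPdim AECs and 0.00598% in SECs, and stromal genes at most 0.0171% in Nestin-GFPdim AECs and 0.0195% in SECs. The larger SEC shares of the lymphatic, macrophage and pericyte lists came from a few genes. In the lymphatic list they were Flt4 and Mmrn1, while Prox1, the defining transcription factor of lymphatic endothelium, stayed at no read, 0.896 and 0.656 RPKM in Nestin-GFPdim AECs and 0.202, 2.60 and 1.21 RPKM in SECs. In the macrophage list they were Vcam1 and Mrc1, while Cd163 did not exceed 1.14 RPKM in any Nestin-GFPdim AEC library or 1.11 RPKM in any SEC library. In the pericyte list they were Kcnj8 and Abcc9, the subunits of an ATP-sensitive potassium channel, while Pdgfrb did not exceed 1.63 RPKM in Nestin-GFPdim AECs or 0.518 RPKM in SECs. In the same list Acta2, Tagln and Myl9, genes of smooth muscle contraction, lay higher in every Nestin-GFPdim AEC library than in any SEC library, and were not called. All Nestin-GFPdim AEC libraries lay below all SEC libraries in 3 of 12 tested macrophage genes, 2 of 5 lymphatic genes and 1 of 9 pericyte genes (9.46% of all genes). The log2 fold change was positive in 3 of the 12, 1 of the 5 and 6 of the 9. The part that RNA of blood cells, or of the other cell types listed here, plays in these shares and in the results below was not tested.

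**Figure D1:**
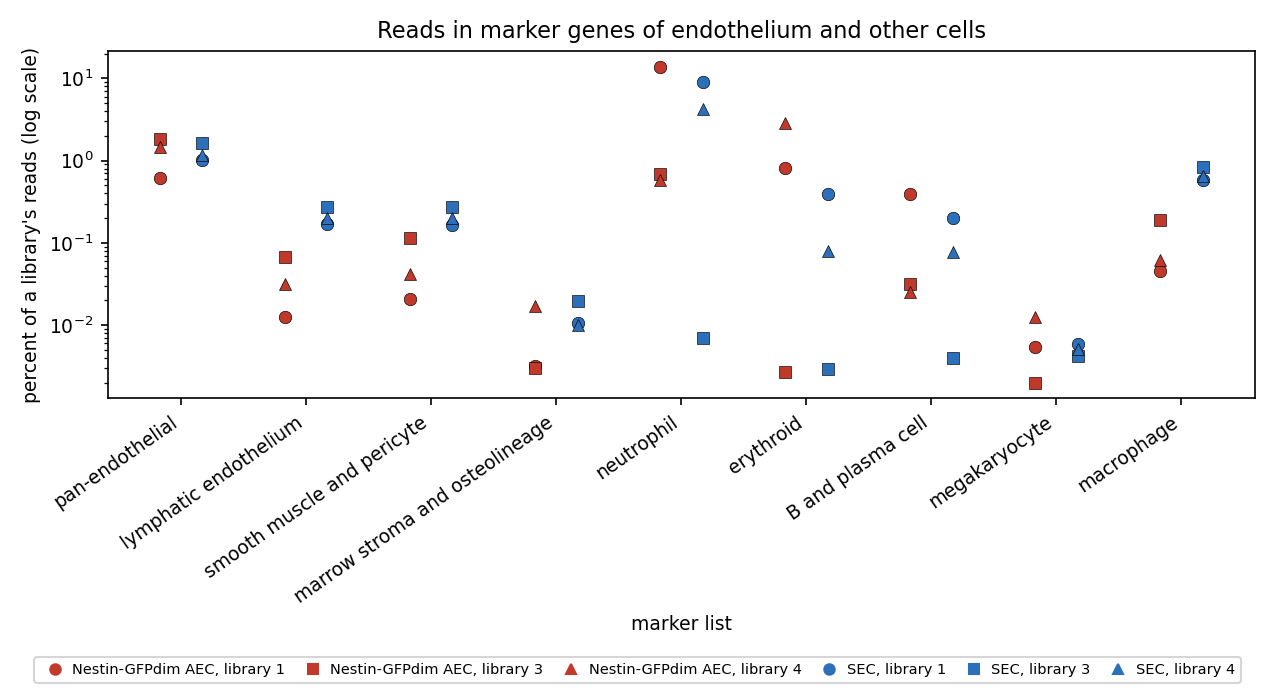
Percent of each library's reads (vertical axis, log scale) in marker genes of endothelium and of 8 other cell types (horizontal axis), for 3 Nestin-GFPdim AEC libraries (red) and 3 SEC libraries (blue), with the shape of a point giving the library number. Neutrophil genes took 13.9% of Nestin-GFPdim AEC library 1 and 0.00688% of SEC library 3, while the pan-endothelial shares of both groups overlapped.

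The comparison over all genes came next. Of 15441 genes that reached 0.1 RPKM in 3 or more libraries, limma on log2(RPKM + 1) called 192 (1.24%) at an adjusted p below 0.05 by the method of Benjamini and Hochberg, of which 107 were higher in Nestin-GFPdim AECs (0.693%) and 85 were lower (0.55%). At an unadjusted p under 0.05 there were 1830 genes. The median log2 fold change over all tested genes was 0.00093, whereas the called genes, which the threshold itself limits to larger changes, had a median absolute log2 fold change of 3.22 for those higher and 2.29 for those lower. Of the 107 higher genes 80 averaged at least 10 RPKM in Nestin-GFPdim AECs, and 62 stayed under 1 RPKM in every SEC library. Of the 85 lower genes 47 stayed under 1 RPKM in every Nestin-GFPdim AEC library, and 39 averaged at least 10 RPKM in SECs, so that many of them were low in both groups. Every one of the 192 had all 3 Nestin-GFPdim AEC libraries on one side of all 3 SEC libraries. Such separation by itself was common, since all 3 Nestin-GFPdim AEC libraries lay above all 3 SEC libraries in 7.83% of tested genes and below them in 9.46%. An exact permutation test of 3 libraries against 3 cannot go below p = 0.10, so single genes were tested only within the fit over all genes.

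These counts depended on how the shared library numbers were treated and on single libraries. With the replicate number as a block, which lets libraries 1, 3 and 4 differ in level, limma called 526 genes (3.41%), of which 238 were higher (1.54%) and 288 were lower (1.87%). All 192 were among them. Of all settings the block called the most genes. The labels do not state the pairing it assumes. Deviations from the group means correlated by only 0.11 for the libraries numbered 4, while unlike numbers reached 0.28 and 0.18. Adjusted p-values given with the block rest on that pairing. Left without SEC replicate 1, the test called 4 genes, Gja4, Lims2, Rbp7 and Sparcl1. Left without SEC replicate 3 or without SEC replicate 4, it called 2 genes, Lims2 and Rbp7 both times. In each of these fits 1266 to 1411 genes had an unadjusted p under 0.05. All 192 genes kept their direction, which was fixed in advance, since none of them overlapped between the groups. Left without Nestin-GFPdim AEC replicate 3 it called 46 genes higher and 76 lower, and left without Nestin-GFPdim AEC replicate 4 it called 116 higher and 20 lower. With only the libraries numbered 3 and 4 it called 0 genes, with 1574 at an unadjusted p under 0.05. On reads recovered from the deposited values, limma with voom called 102 genes. Adjusted p-values below come from limma, ± after a log2 fold change is its standard error, and values of libraries are given in the order 1, 3 and 4.

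**Figure D2:**
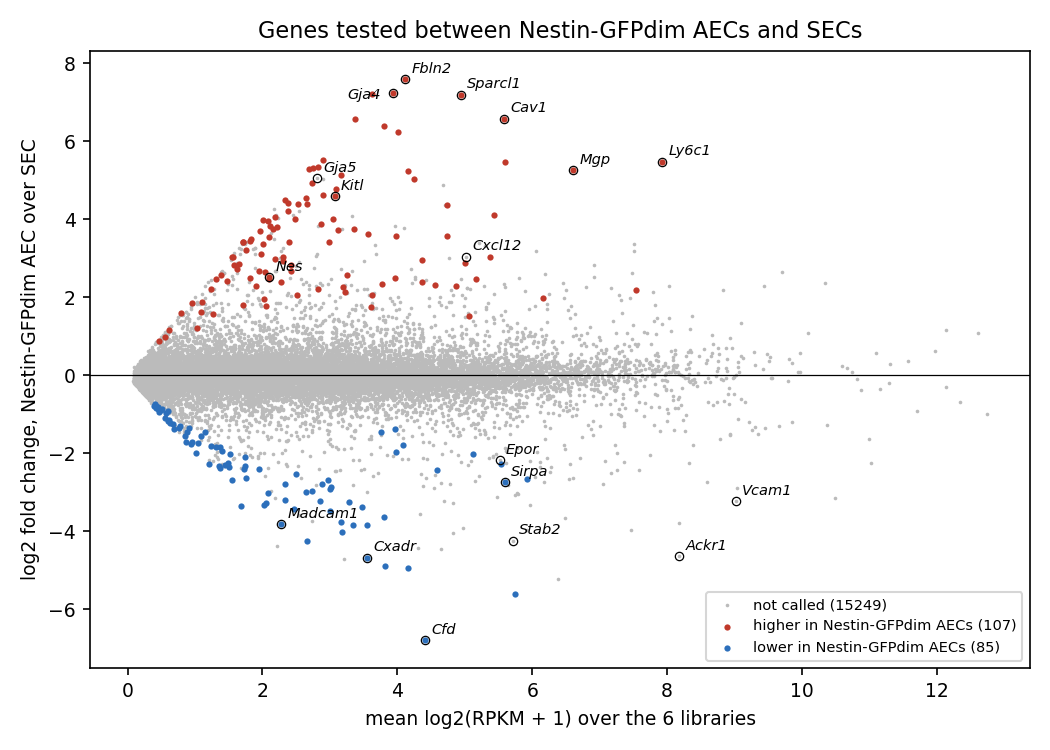
Each of the 15441 tested genes by its mean log2(RPKM + 1) over the 6 libraries (horizontal axis) and its log2 fold change of Nestin-GFPdim AECs over SECs (vertical axis), with the 107 genes called higher in red, the 85 called lower in blue and genes of interest circled and named. Stab2, Epor, Vcam1 and Ackr1 lie far below 0 without being called, beside called genes such as Cfd and Cxadr.

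**Figure D3:**
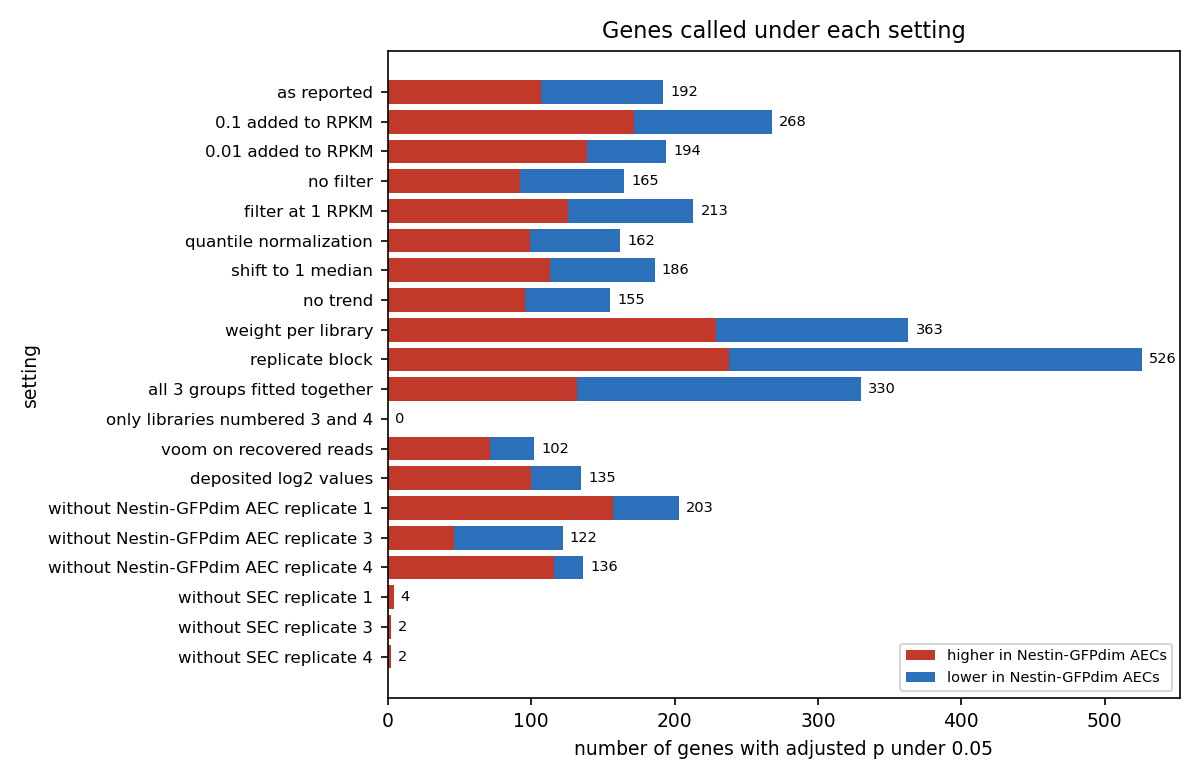
Number of genes with an adjusted p under 0.05 (horizontal axis) under the reported setting and 19 other settings (vertical axis), split into genes higher (red) and lower (blue) in Nestin-GFPdim AECs. The count is 192 as reported, 526 with the replicate block, and 2 to 4 without any 1 of the SEC libraries.

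Gja4, Stab2 and Epor mark the comparison: none of them was used in the sort. The study had named all 3 from these same libraries, so their direction is not independent evidence. Gja4 encodes connexin 37, a gap junction protein of arterial endothelium, on chromosome 4 (127311421 to 127314039, GRCm38). It had 132, 134 and 366 RPKM in Nestin-GFPdim AECs and 0.624, 0.165 and 0.0160 RPKM in SECs. The lowest Nestin-GFPdim AEC library thus held more than any SEC library by a wide margin, SEC replicate 4 having 1 read, and Gja4 rose (log2 fold change 7.23 ± 0.45, adjusted p = 0.00687). It was called in 16 of 19 other settings, and missed the threshold without SEC replicate 3 (adjusted p = 0.0522), without SEC replicate 4 (0.0707) and with only libraries 3 and 4 (0.0673).

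Stab2 encodes stabilin-2, a scavenger receptor for hyaluronan on sinusoidal endothelium, on chromosome 10 (86841198 to 87008025, GRCm38). It had 3.38, 36 and 9.74 RPKM in Nestin-GFPdim AECs and 202, 277 and 208 RPKM in SECs. All SEC libraries lay within a narrow range above every Nestin-GFPdim AEC library, but Nestin-GFPdim AEC replicate 3 stood well above the others of its group. The difference just missed the threshold (log2 fold change -4.24 ± 0.73, adjusted p = 0.0545) and passed it with the replicate block (adjusted p = 0.0288). By voom the adjusted p of Stab2 was 0.101, and by limma on the deposited log2 values it was 0.0815. Epor, the receptor of erythropoietin, lies on chromosome 9 (21958899 to 21963576, GRCm38) and had 15.9, 39.9 and 13.6 RPKM in Nestin-GFPdim AECs and 88.4, 114 and 88.6 RPKM in SECs. Here too Nestin-GFPdim AEC replicate 3 was the highest of its group and no groups overlapped, the difference missed the threshold (log2 fold change -2.17 ± 0.41, adjusted p = 0.0695), and the replicate block brought it past (adjusted p = 0.0288). By voom the adjusted p of Epor was 0.0780, and by limma on the deposited log2 values it was 0.0876. Erythroid cells also express Epor. Epor was at its highest in replicate 3 of each group, the libraries in which the erythroid list had its lowest shares, 0.00273% of the reads in Nestin-GFPdim AECs and 0.00293% in SECs. The part of erythroid RNA in the values of Epor was not tested. Epor was called in 2 of 19 other settings and Stab2 in 5, the fit without Nestin-GFPdim AEC replicate 3 being one of them for both (adjusted p = 0.0252 for Epor and 0.0252 for Stab2).

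The bases upstream of the start sites of these genes are shown, together with those of Rbp7. Rbp7 was one of the 2 genes that stayed called whichever SEC library was left out. Stab2 and Epor were not called in the reported fit. Each stretch holds the 250 bases before the RefSeq start site, 5′ to 3′ on the strand of the gene (minus for all 4), from RefSeq on GRCm38.p6. They were searched on both strands for a motif of GATA factors (AGATAA), a motif of the Notch effector RBPJ (GTGGGAA), a motif of ETS factors (CCGGAAGT) and the TATA box motif (TATAAA), and no matches overlapped. Capitals mark a match.
Gja4, chr4:127314040-127314289: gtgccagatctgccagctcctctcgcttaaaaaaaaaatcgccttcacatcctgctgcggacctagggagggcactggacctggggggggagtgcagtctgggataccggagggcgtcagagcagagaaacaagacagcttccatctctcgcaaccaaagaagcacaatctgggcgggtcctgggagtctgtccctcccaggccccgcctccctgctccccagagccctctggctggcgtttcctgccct
Rbp7, chr4:149454969-149455218: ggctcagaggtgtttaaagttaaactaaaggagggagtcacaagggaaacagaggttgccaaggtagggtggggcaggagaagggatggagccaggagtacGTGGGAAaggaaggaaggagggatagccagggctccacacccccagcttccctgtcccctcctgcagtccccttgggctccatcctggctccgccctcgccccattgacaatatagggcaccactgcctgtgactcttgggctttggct
Stab2, chr10:87007943-87008192: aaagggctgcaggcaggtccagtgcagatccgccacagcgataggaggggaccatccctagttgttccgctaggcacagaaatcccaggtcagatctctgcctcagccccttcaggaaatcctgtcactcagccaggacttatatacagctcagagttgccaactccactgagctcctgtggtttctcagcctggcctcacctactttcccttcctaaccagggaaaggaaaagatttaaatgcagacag
Epor, chr9:21963577-21963826: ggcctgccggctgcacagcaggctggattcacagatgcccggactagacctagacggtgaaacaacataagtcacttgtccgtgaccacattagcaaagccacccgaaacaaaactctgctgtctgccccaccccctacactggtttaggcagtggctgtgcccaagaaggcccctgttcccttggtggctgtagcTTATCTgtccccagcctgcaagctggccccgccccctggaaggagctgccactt
Epor holds 1 GATA match, on the other strand, 54 to 49 bases before the start site, and Rbp7 holds 1 RBPJ match, 149 to 143 bases before it. Among 32851 promoters of the same length, 9.99% held AGATAA, 5.42% GTGGGAA, 2.88% CCGGAAGT and 12.4% TATAAA. A match describes letters and not binding, and the stretches of Gja4 and Stab2 held none of these letters.

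All calls in the arterial gene list were higher in Nestin-GFPdim AECs. Of its 25 tested members 8 were called higher (0.693% of all genes) and 0 lower (0.55%), 17 did not pass, and the median log2 fold change was 2.49, against 0.00093 over all tested genes. In 19 of the 25 all Nestin-GFPdim AEC libraries lay above all SEC libraries (7.83% of all genes), and with the replicate block 13 were called higher (1.54%). Voom on recovered reads called only 1 of the 25 higher and 0 lower (71 and 31 of all 15441 genes). The list holds genes that the study picked from these same libraries, so its direction is not independent evidence. Efnb2, the arterial ligand ephrin-B2, had 16.6, 23.5 and 73 RPKM in Nestin-GFPdim AECs and 0.733, 1.91 and 1.71 RPKM in SECs (log2 fold change 3.73 ± 0.56, adjusted p = 0.0403). Hey1, a transcriptional repressor induced by Notch, had 11.1, 14.8 and 57.9 RPKM in Nestin-GFPdim AECs and 0.0725, 0.580 and 0.0305 RPKM in SECs (log2 fold change 4.22 ± 0.62, adjusted p = 0.0381). Both were highest in Nestin-GFPdim AEC replicate 4, as were 23 of the 25 members (5077 of all 15441 tested genes). Bmx, a cytoplasmic tyrosine kinase, was present in both groups and rose by a smaller factor, with 25.2, 20.8 and 50.2 RPKM in Nestin-GFPdim AECs and 5.04, 4.70 and 5.67 RPKM in SECs (log2 fold change 2.33 ± 0.35, adjusted p = 0.0386), where 3 of its deposited values did not correspond to whole reads. Its groups did not overlap.

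Sema3g, a secreted semaphorin, had 16, 42.3 and 119 RPKM in Nestin-GFPdim AECs and 0.771, 0.606 and 0.556 RPKM in SECs (log2 fold change 4.76 ± 0.67, adjusted p = 0.0338). Mgp, an inhibitor of vessel calcification, had 459.5, 278 and 1688 RPKM in Nestin-GFPdim AECs and 5.85, 25.5 and 20.7 RPKM in SECs (log2 fold change 5.25 ± 0.79, adjusted p = 0.0412; called in 7 of 19 other settings). Stmn2, which encodes a regulator of microtubules, had 22.9, 20.6 and 123 RPKM in Nestin-GFPdim AECs and 8 reads in all over the 3 SEC libraries (log2 fold change 5.27 ± 0.68, adjusted p = 0.0265). All 3 rose and were highest in Nestin-GFPdim AEC replicate 4. Gkn3 encodes gastrokine-3 and had 90.9, 57 and 631 RPKM in Nestin-GFPdim AECs and no read in any SEC library (log2 fold change 7.22 ± 0.85, adjusted p = 0.0226). Set against 3 reads in each SEC library, it was at least 3660-fold higher, and without Nestin-GFPdim AEC replicate 4 at least 1040-fold. The fitted fold change of such a gene depends on the 1 added to RPKM and is no bound. Bounds against 3 reads cover counting error only.

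Other arterial genes had folds as large without passing. Gja5, which encodes connexin 40, had 20.2, 18.6 and 157 RPKM in Nestin-GFPdim AECs, against 0.807 RPKM in SEC replicate 1 and no read in SEC replicates 3 and 4 (log2 fold change 5.05 ± 0.83, adjusted p = 0.0503; 0.0421 with the replicate block). Alpl, the tissue-nonspecific alkaline phosphatase, had 18.7, 22.3 and 168 RPKM in Nestin-GFPdim AECs and 0.748, 0.0300 and 0.251 RPKM in SECs (log2 fold change 5.03 ± 0.83, adjusted p = 0.0503; 0.0377 with the block). Their spread came from Nestin-GFPdim AEC replicate 4, which stood above replicates 1 and 3 by several fold. Notch pathway genes were uneven: Jag2 had 6.13, 10 and 31.8 RPKM in Nestin-GFPdim AECs and 1.88, 1.81 and 1.46 RPKM in SECs (log2 fold change 2.34 ± 0.56, adjusted p = 0.133). Jag1 had 2.41, 2.80 and 28.5 RPKM in Nestin-GFPdim AECs and 3.34, 6.04 and 4.76 RPKM in SECs, with overlap (log2 fold change 0.37 ± 0.84, adjusted p = 0.985). Both encode Notch ligands, and Jag1 was lower in Nestin-GFPdim AEC replicates 1 and 3 than in any SEC library. Ephb4, the venous receptor of ephrin-B2, had 37.2, 73.2 and 106 RPKM in Nestin-GFPdim AECs and 41, 45.6 and 54.9 RPKM in SECs and did not separate the groups (log2 fold change 0.49 ± 0.39, adjusted p = 0.826).

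**Figure D4:**
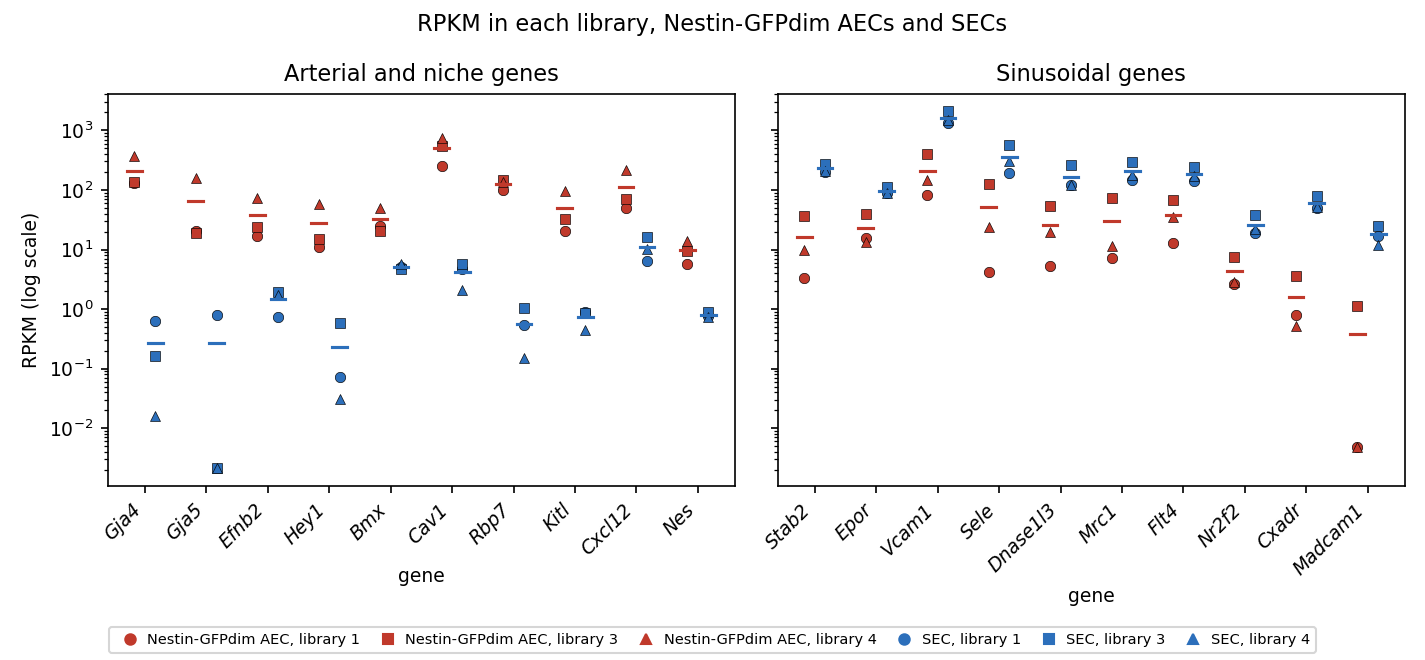
RPKM (vertical axis, log scale) of arterial and niche genes (left panel) and sinusoidal genes (right panel) in each Nestin-GFPdim AEC library (red) and each SEC library (blue), with the shape of a point giving the library number and a bar the group mean. No gene drawn overlaps between the groups, and in the right panel Nestin-GFPdim AEC library 3 (square) is the highest red point throughout.

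The sinusoidal list had no call in the reported fit, although Stab2 was called in 5 of 19 other settings, 4 of them without the block. Of its 23 tested members limma and voom called 0 in either direction, and 15 had an unadjusted p under 0.05, all lower (1830 of all 15441 genes in either direction). The median log2 fold change was -1.90, and in 14 all Nestin-GFPdim AEC libraries lay below all SEC libraries (9.46% of all genes). With the replicate block 10 were called lower (1.87% of all genes) and 0 higher. This list too holds genes that the study named from these libraries. Nestin-GFPdim AEC replicate 3 was the highest of its group in 19 of the 23 members, and SEC replicate 3 in 16. Over all 15441 tested genes the counts were 5053 for Nestin-GFPdim AEC replicate 3 and 7151 for SEC replicate 3. Dnase1l3, a secreted nuclease, had 5.35, 53.7 and 19.7 RPKM in Nestin-GFPdim AECs and 121, 258 and 119 RPKM in SECs (log2 fold change -3.01 ± 0.78, adjusted p = 0.159; 0.0377 with the block). C1qtnf1, a secreted C1q-like protein, had 14.2, 64.1 and 17.9 RPKM in Nestin-GFPdim AECs and 126, 232 and 145 RPKM in SECs (log2 fold change -2.62 ± 0.58, adjusted p = 0.105; 0.0251 with the block). In both, replicate 3 was the highest library of each group.

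Ackr1, the atypical chemokine receptor of venous endothelium, had 12.4, 244 and 59.1 RPKM in Nestin-GFPdim AECs and 1192, 1989.7 and 1269 RPKM in SECs (log2 fold change -4.63 ± 0.99, adjusted p = 0.0994; 0.0389 with the block). Flt4, the receptor VEGFR3, had 12.9, 67.7 and 35.1 RPKM in Nestin-GFPdim AECs and 143, 244 and 173 RPKM in SECs (log2 fold change -2.49 ± 0.58, adjusted p = 0.124; 0.0332 with the block). Mrc1, the mannose receptor, had 7.30, 72.1 and 11.4 RPKM in Nestin-GFPdim AECs and 148, 290.0 and 180.2 RPKM in SECs (log2 fold change -3.34 ± 0.81, adjusted p = 0.137; 0.0366 with the block). In each of these the groups stood apart, and the spread lay within Nestin-GFPdim AECs, whose replicate 3 came nearest to SECs. Not every gene associated with sinusoids stood apart. Plvap, which forms the diaphragms of fenestrae, had 442, 651 and 1303 RPKM in Nestin-GFPdim AECs and 429.5, 453 and 1385 RPKM in SECs (log2 fold change 0.16 ± 0.63, adjusted p = 0.993). Lyve1 stayed under 1 RPKM in all 6 libraries, at most 0.71 RPKM in Nestin-GFPdim AECs and 0.57 RPKM in SECs.

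Among secreted factors of the stem cell niche, only the gene of stem cell factor was called in the reported fit. Of 21 tested niche genes 1 was called higher (0.693% of all genes), 0 were called lower (0.55%), and the median log2 fold change was 0.37. All Nestin-GFPdim AEC libraries lay above all SEC libraries in 7 of the 21 (7.83% of all genes) and below them in 2 (9.46%). With the block 2 were called higher (1.54% of all genes) and 1 lower (1.87%). Voom called 1 higher and 0 lower (71 and 31 of all 15441 genes). The list includes genes that the study named from these same libraries. Kitl, which encodes stem cell factor, had 20.7, 32.5 and 94.7 RPKM in Nestin-GFPdim AECs and 0.886, 0.849 and 0.441 RPKM in SECs. Every SEC library was under 1 RPKM, and Kitl rose in Nestin-GFPdim AECs (log2 fold change 4.59 ± 0.54, adjusted p = 0.0230; called in 14 of 19 other settings). Cxcl12, the chemokine that retains stem cells in the marrow, had 50.1, 69.2 and 219 RPKM in Nestin-GFPdim AECs and 6.47, 16.3 and 10.1 RPKM in SECs. Its groups did not overlap and it missed the threshold (log2 fold change 3.03 ± 0.60, adjusted p = 0.0774; 0.0414 with the block). SECs thus held measurable Cxcl12 where they held little Kitl, a comparison of values per length of gene that was not tested.

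Tgfb2 had 1.97, 3.24 and 11.9 RPKM in Nestin-GFPdim AECs and 12 reads in all over the 3 SEC libraries (log2 fold change 2.43 ± 0.53, adjusted p = 0.104). Il6, an inflammatory cytokine, had 1.64, 25.2 and 100.4 RPKM in Nestin-GFPdim AECs and 0.358, 15.7 and 11.5 RPKM in SECs, with overlap (log2 fold change 1.54 ± 1.52, adjusted p = 0.890, and 0.201 with the block). Each Nestin-GFPdim AEC library was above the SEC library of its number. Csf3, the granulocyte growth factor G-CSF, had no read, 5.21 and 4.18 RPKM in Nestin-GFPdim AECs and 0.0950, 92.9 and 22.6 RPKM in SECs (log2 fold change -2.08 ± 1.64, adjusted p = 0.821). Il6 and Csf3 were lowest in the library numbered 1 of each group. Igf1 was the niche gene called lower with the block (0.0309), with 0.431, 1.19 and 0.202 RPKM in Nestin-GFPdim AECs and 3.44, 10.4 and 4.08 RPKM in SECs (log2 fold change -2.03 ± 0.45, adjusted p = 0.103). Its groups did not overlap.

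Genes of erythropoietin signalling other than Epor and Csf2rb were called neither with nor without the block. Of 15 tested members limma and voom called 0, 2 had an unadjusted p under 0.05 (1830 of all 15441 genes), and the median log2 fold change was -0.29. With the block 2 were called lower (1.87% of all genes), Epor and Csf2rb. Csf2rb, the beta chain shared by receptors of IL-3, GM-CSF and IL-5, had 38.3, 36 and 37.3 RPKM in Nestin-GFPdim AECs and 64.4, 68.7 and 67.7 RPKM in SECs (log2 fold change -0.83 ± 0.17, adjusted p = 0.0834; 0.0499 with the block). Its values were even within each group, though reads may be shared with the near-identical Csf2rb2. Jak2, the kinase bound to the Epo receptor, had 3.56, 4.87 and 9.65 RPKM in Nestin-GFPdim AECs and 6.11, 10.1 and 12.2 RPKM in SECs (log2 fold change -0.62 ± 0.41, adjusted p = 0.734). Stat5b, the transcription factor downstream, had 13.7, 11.7 and 13.7 RPKM in Nestin-GFPdim AECs and 14.6, 13.3 and 12.9 RPKM in SECs (log2 fold change -0.057 ± 0.19, adjusted p = 0.992). Socs3, a feedback inhibitor of cytokine receptors, had 14.7, 164 and 252 RPKM in Nestin-GFPdim AECs and 22.7, 253 and 316 RPKM in SECs, lowest in the library numbered 1 of each group.

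Adhesion molecules split between the vessels. Of 20 tested members 2 were called higher (0.693% of all genes) and 1 lower (0.55%), with a median log2 fold change of 0.21. With the block 4 were called higher (1.54% of all genes) and 3 lower (1.87%). Voom called 2 higher and 0 lower (71 and 31 of all 15441 genes). Some members are genes that the study named from these same libraries. Cd34, a sialomucin that can carry selectin ligands, had 233, 550.3 and 255 RPKM in Nestin-GFPdim AECs and 11.2, 6.60 and 3.16 RPKM in SECs (log2 fold change 5.46 ± 0.50, adjusted p = 0.0123). Jam2, a junctional adhesion molecule, had 49.8, 152 and 166 RPKM in Nestin-GFPdim AECs and 2.10, 3.26 and 0.844 RPKM in SECs (log2 fold change 5.24 ± 0.54, adjusted p = 0.0175). Both rose in Nestin-GFPdim AECs, and Podxl, a sialomucin of the same family as Cd34, had 56.4, 77.5 and 370.1 RPKM in Nestin-GFPdim AECs and 2.58, 6.19 and 6.55 RPKM in SECs (log2 fold change 4.36 ± 0.73, adjusted p = 0.0519; 0.0236 with the block). Madcam1, the ligand of integrin alpha4beta7, fell: it had no read in Nestin-GFPdim AEC replicates 1 and 4 and 1.12 RPKM in replicate 3, against 17.2, 24.7 and 12 RPKM in SECs (log2 fold change -3.82 ± 0.42, adjusted p = 0.0187). No Nestin-GFPdim AEC library came near an SEC library.

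Vcam1, the ligand of integrin alpha4beta1, had 82.6, 396 and 147 RPKM in Nestin-GFPdim AECs and 1315, 2083 and 1469 RPKM in SECs (log2 fold change -3.23 ± 0.60, adjusted p = 0.0671; 0.0270 with the block). Sele, E-selectin, had 4.15, 125 and 23.7 RPKM in Nestin-GFPdim AECs and 193, 568 and 301 RPKM in SECs (log2 fold change -3.67 ± 1.12, adjusted p = 0.228; 0.0479 with the block). Selp, P-selectin, had 5.05, 79.5 and 43.9 RPKM in Nestin-GFPdim AECs and 129, 284 and 177 RPKM in SECs (log2 fold change -2.75 ± 0.94, adjusted p = 0.298; 0.0792 with the block). These 3 had no overlap between the groups, and the lowest values within each group lay in its library numbered 1. Icam1 had 14.1, 304 and 262 RPKM in Nestin-GFPdim AECs and 89.9, 486 and 359.6 RPKM in SECs, with overlap (log2 fold change -1.24 ± 1.27, adjusted p = 0.902, and 0.254 with the block). Each Nestin-GFPdim AEC library was below the SEC library of its number.

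All calls among matrix and basement membrane genes were higher in Nestin-GFPdim AECs. Of 26 tested members 6 were called higher (0.693% of all genes) and 0 lower, the median log2 fold change was 2.01, and all Nestin-GFPdim AEC libraries lay above all SEC libraries in 15 (7.83% of all genes). With the block 11 were called higher (1.54% of all genes) and 0 lower. Voom called only 1 higher and 0 lower (71 and 31 of all 15441 genes). Fbln2, an elastic fibre protein, had 92.8, 219 and 676 RPKM in Nestin-GFPdim AECs and 0.457, 0.317 and 0.00458 RPKM in SECs (log2 fold change 7.60 ± 0.68, adjusted p = 0.0123). Sparcl1, a secreted matricellular protein, had 248, 448 and 455 RPKM in Nestin-GFPdim AECs and 4.58, 1.88 and 0.0151 RPKM in SECs (log2 fold change 7.19 ± 0.63, adjusted p = 0.0123). The SEC values of both were uneven, with SEC replicate 4 holding 1 read of Fbln2 and 2 of Sparcl1. Mfap2, a component of microfibrils, had 27.6, 38.4 and 14.4 RPKM in Nestin-GFPdim AECs and 1.65, 1.27 and 1.37 RPKM in SECs (log2 fold change 3.42 ± 0.37, adjusted p = 0.0187). Lama4, the laminin alpha4 chain, had 6.69, 15.8 and 18.5 RPKM in Nestin-GFPdim AECs and 0.896, 0.872 and 0.621 RPKM in SECs (log2 fold change 2.93 ± 0.40, adjusted p = 0.0329). Col15a1 (log2 fold change 2.56 ± 0.29, adjusted p = 0.0190) and Col18a1 (log2 fold change 4.0 ± 0.62, adjusted p = 0.0431), the genes of 2 basement membrane collagens, rose too.

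Col4a1, a collagen chain of all basement membranes, was expressed by both, with 152, 602 and 349.6 RPKM in Nestin-GFPdim AECs and 59.7, 94 and 78.4 RPKM in SECs (log2 fold change 2.05 ± 0.51, adjusted p = 0.148; 0.0377 with the block). Ltbp4, which binds latent TGF-beta to elastic fibres, had 57.6, 74.9 and 588 RPKM in Nestin-GFPdim AECs and 2.46, 3.38 and 5.92 RPKM in SECs (log2 fold change 4.87 ± 0.87, adjusted p = 0.0603; 0.0243 with the block). Eln, elastin, had 27.3, 32.5 and 111 RPKM in Nestin-GFPdim AECs and 5.33, 9.48 and 4.53 RPKM in SECs (log2 fold change 2.73 ± 0.57, adjusted p = 0.0901). All 3 had groups without overlap. Elastic fibre genes are also made by smooth muscle, and Acta2, a gene of that cell type, had 8.65, 21.1 and 24.3 RPKM in Nestin-GFPdim AECs and 5.37, 0.0279 and 1.79 RPKM in SECs (log2 fold change 2.74 ± 0.72, adjusted p = 0.163). Myh11, the heavy chain of smooth muscle myosin, had 0.0438, 1.09 and 2.96 RPKM in Nestin-GFPdim AECs and 2 reads in all in SECs, and was too low to be tested. Tagln, or transgelin, had 6.45, 16.6 and 41.9 RPKM in Nestin-GFPdim AECs and 3.54, 4.52 and 2.41 RPKM in SECs, and Myl9, a myosin light chain, had 3.61, 14.4 and 33.9 RPKM in Nestin-GFPdim AECs and 0.423, 1.15 and 0.594 RPKM in SECs. The part of smooth muscle RNA in the matrix result was not tested.

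Cav1 rose steeply in Nestin-GFPdim AECs, and genes of lipid handling ran both ways. Of 23 tested members 3 were called higher (0.693% of all genes) and 0 lower, with a median log2 fold change of 0.48. With the block 5 were called higher (1.54% of all genes) and 3 lower (1.87%). Voom called 1 higher and 0 lower (71 and 31 of all 15441 genes). Cav1, the coat protein of caveolae, had 249.8, 552 and 736 RPKM in Nestin-GFPdim AECs and 4.66, 5.79 and 2.07 RPKM in SECs (log2 fold change 6.58 ± 0.48, adjusted p = 0.0102). Cav2, its partner, had 92.6, 220.0 and 185 RPKM in Nestin-GFPdim AECs and 27.8, 58.2 and 29.2 RPKM in SECs (log2 fold change 2.08 ± 0.43, adjusted p = 0.0915; 0.0251 with the block). Every SEC library thus held more Cav2 than Cav1 per length of gene. Aqp7, a channel for water and glycerol, had 7.76, 28.6 and 52.9 RPKM in Nestin-GFPdim AECs and 0.0745, 0.215 and 0.0877 RPKM in SECs (log2 fold change 4.42 ± 0.65, adjusted p = 0.0381). Fabp5, a fatty acid binding protein, had 15.4, 21.7 and 29.2 RPKM in Nestin-GFPdim AECs and 6.21, 5.90 and 4.98 RPKM in SECs (log2 fold change 1.75 ± 0.28, adjusted p = 0.0453; called in 7 of 19 other settings). Both rose in Nestin-GFPdim AECs without overlap. On the SEC side stood Lipg, endothelial lipase, with 3.81, 25 and 5.03 RPKM in Nestin-GFPdim AECs and 68.4, 129 and 73.5 RPKM in SECs (log2 fold change -3.27 ± 0.66, adjusted p = 0.0843; 0.0240 with the block). Pparg, a nuclear receptor of lipid metabolism, had 27.1, 176 and 56.5 RPKM in Nestin-GFPdim AECs and 226, 598 and 336 RPKM in SECs (log2 fold change -2.44 ± 0.71, adjusted p = 0.208; 0.0272 with the block). Slc27a1, a fatty acid transporter, had 2.67, 5.76 and 1.22 RPKM in Nestin-GFPdim AECs and 17.4, 28.9 and 15 RPKM in SECs (log2 fold change -2.44 ± 0.47, adjusted p = 0.0709; 0.0193 with the block). All 3 had groups without overlap.

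Scavenger receptors and lysosomal enzymes were mixed. Of 26 tested members limma and voom called 0, 9 had an unadjusted p under 0.05 (2 higher, 7 lower), and the median log2 fold change was -0.83. Over all 15441 tested genes, 1830 had an unadjusted p under 0.05. With the block 5 were called lower (1.87% of all genes) and 2 higher (1.54%). Ctsl, the lysosomal protease cathepsin L, had the highest SEC values of the list, with 294, 1172 and 324 RPKM in Nestin-GFPdim AECs and 3311, 5921 and 3984 RPKM in SECs (log2 fold change -3.15 ± 0.67, adjusted p = 0.0979; 0.0332 with the block). Lgmn, legumain, had 89.2, 411 and 83.5 RPKM in Nestin-GFPdim AECs and 507, 1047 and 645 RPKM in SECs (log2 fold change -2.26 ± 0.68, adjusted p = 0.220; 0.0459 with the block). Stab1, the relative of stabilin-2, had 9.26, 52.6 and 27.3 RPKM in Nestin-GFPdim AECs and 72.5, 136 and 86 RPKM in SECs (log2 fold change -1.94 ± 0.61, adjusted p = 0.244; 0.0523 with the block). These had no overlap, and Nestin-GFPdim AEC replicate 3 was the highest of its group in each and in 20 of the 26 members (5053 of all 15441 tested genes). Scarb1, a receptor for high-density lipoprotein, lay on the other side, with 74.6, 159 and 97.6 RPKM in Nestin-GFPdim AECs and 39.5, 58.8 and 40.7 RPKM in SECs (log2 fold change 1.19 ± 0.33, adjusted p = 0.191; 0.0376 with the block).

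Among genes of vascular tone, 2 receptor genes rose. Of 21 tested members 2 were called higher (0.693% of all genes) and 0 lower, 19 did not pass, the median log2 fold change was 0.75, and with the block 5 were called higher (1.54% of all genes). Voom called 2 higher and 0 lower (71 and 31 of all 15441 genes). Ednrb, an endothelin receptor, had 28.2, 100.2 and 49.9 RPKM in Nestin-GFPdim AECs and 0.355, 0.950 and 0.306 RPKM in SECs (log2 fold change 5.14 ± 0.47, adjusted p = 0.0128). Ramp3, which pairs with receptors of adrenomedullin, had 102, 213 and 57.2 RPKM in Nestin-GFPdim AECs and 1.78, 3.49 and 1.97 RPKM in SECs (log2 fold change 5.03 ± 0.49, adjusted p = 0.0145). Both rose, and every SEC library held under 4 RPKM. The ligand Edn1 had 8.84, 13.2 and 82.4 RPKM in Nestin-GFPdim AECs and 0.373, 0.454 and 0.175 RPKM in SECs and did not pass (log2 fold change 4.09 ± 0.78, adjusted p = 0.0714). Ace, angiotensin-converting enzyme, had 10.9, 13.3 and 91 RPKM in Nestin-GFPdim AECs and 0.320, 0.144 and 0.614 RPKM in SECs (log2 fold change 4.21 ± 0.78, adjusted p = 0.0661; 0.0349 with the block). Nos3, endothelial nitric oxide synthase, was present in both groups, with 14.3, 30.2 and 65 RPKM in Nestin-GFPdim AECs and 5.72, 10.5 and 7.02 RPKM in SECs (log2 fold change 1.89 ± 0.54, adjusted p = 0.199).

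Transcription factors differed in a few members. Of 27 tested 2 were called higher (0.693% of all genes) and 1 lower (0.55%), with a median log2 fold change of 0.40. With the block 5 were called higher (1.54% of all genes) and 3 lower (1.87%). Voom called 0 higher and 0 lower (71 and 31 of all 15441 genes). Beside Hey1, Tbx3, a T-box factor, rose, with 4.06, 5.71 and 13.4 RPKM in Nestin-GFPdim AECs and 0.0488, 0.275 and 0.282 RPKM in SECs (log2 fold change 2.72 ± 0.42, adjusted p = 0.0431). Meis2, a homeodomain factor, fell, with no read in Nestin-GFPdim AEC replicates 1 and 4 and 0.522 RPKM in replicate 3, against 3.60, 11.6 and 5.97 RPKM in SECs (log2 fold change -2.68 ± 0.42, adjusted p = 0.0443; called in 6 of 19 other settings). Neither overlapped. Nr2f2, which encodes the venous factor COUP-TFII, had 2.63, 7.54 and 2.84 RPKM in Nestin-GFPdim AECs and 19, 37.7 and 21.8 RPKM in SECs (log2 fold change -2.40 ± 0.43, adjusted p = 0.0600; 0.0175 with the block). Sox17, an arterial factor, had 7.20, 12.5 and 96 RPKM in Nestin-GFPdim AECs and 1.19, 2.41 and 11 RPKM in SECs (log2 fold change 2.30 ± 1.05, adjusted p = 0.492; 0.0308 with the block). In Sox17 the library numbered 4 was the highest of each group, and the groups overlapped although each Nestin-GFPdim AEC library exceeded the SEC library of its number. Meox2 had 2.44, 12 and 28.3 RPKM in Nestin-GFPdim AECs and no read in SECs, at least 561-fold higher against 3 reads in each SEC library (at least 284-fold without Nestin-GFPdim AEC replicate 4), and did not pass (log2 fold change 3.45 ± 0.74, adjusted p = 0.0999).

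Among coagulation and complement genes, 1 fell in Nestin-GFPdim AECs. Of 24 tested 1 was called lower (0.55% of all genes) and 0 higher, 23 did not pass, with a median log2 fold change of -0.30, and with the block 5 were called lower (1.87% of all genes) and 1 higher (1.54%). Voom called 1 lower and 0 higher (31 and 71 of all 15441 genes). Cfd, complement factor D, had no read in Nestin-GFPdim AEC replicate 1 and 4.95 and 0.371 RPKM in replicates 3 and 4, against 213, 203 and 252 RPKM in SECs (log2 fold change -6.79 ± 0.65, adjusted p = 0.0145). It fell in Nestin-GFPdim AECs by the largest amount of any called gene. F8, coagulation factor VIII, had 4.92, 36.3 and 10.8 RPKM in Nestin-GFPdim AECs and 67.7, 146 and 73.9 RPKM in SECs (log2 fold change -2.73 ± 0.69, adjusted p = 0.149; 0.0287 with the block). Tfpi, the inhibitor of the tissue factor pathway, had 119, 583 and 98.3 RPKM in Nestin-GFPdim AECs and 1059.5, 2291 and 1206 RPKM in SECs (log2 fold change -2.91 ± 0.74, adjusted p = 0.155; 0.0332 with the block). Plat, tissue plasminogen activator, was on the other side, with 9.70, 35.2 and 48.3 RPKM in Nestin-GFPdim AECs and 0.0833, 1.97 and 1.10 RPKM in SECs (log2 fold change 3.82 ± 0.66, adjusted p = 0.0549; 0.0187 with the block). None of these 3 overlapped between the groups.

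The remaining lists had few or no calls. By limma and by voom, VEGF and angiopoietin signalling had 0 of 18 called (3 higher and 1 lower with the block), with a median log2 fold change of 0.40 and 5 at an unadjusted p under 0.05. BMP and TGF-beta signalling had 0 of 21 called (2 higher and 0 lower with the block), with a median of -0.28 and 8 at an unadjusted p under 0.05. NF-kappaB and inflammatory genes had 0 of 24 called (0 higher and 1 lower with the block), with a median of -0.061 and 5 at an unadjusted p under 0.05. Over all 15441 tested genes, 1.54% were called higher and 1.87% lower with the block, and 1830 had an unadjusted p under 0.05. Endothelial junctions had 2 of 18 called higher (0.693% of all genes), Gja4 and Jam2, and 0 lower (0.55%), with a median of 0.42. With the block 4 were called higher (1.54% of all genes) and 0 lower (1.87%). Voom called 2 higher and 0 lower (71 and 31 of all 15441 genes). Cell cycle genes had 0 of 20 called by limma with or without the block or by voom, 0 at an unadjusted p under 0.05, a median of 0.27, and their highest Nestin-GFPdim AEC value in replicate 1 for all 20 and their highest SEC value in replicate 1 for 17, the libraries that also held the most neutrophil transcripts. Over all 15441 tested genes, replicate 1 was the highest in 5311 for Nestin-GFPdim AECs and in 4759 for SECs. Flt1, the receptor VEGFR1, had 35.2, 61.4 and 83.1 RPKM in Nestin-GFPdim AECs and 12.3, 26.2 and 17.9 RPKM in SECs (log2 fold change 1.60 ± 0.40, adjusted p = 0.147; 0.0377 with the block). Id1, a target of BMP signalling, had 143, 341 and 289 RPKM in Nestin-GFPdim AECs and 22.3, 76.4 and 72.8 RPKM in SECs (log2 fold change 2.25 ± 0.57, adjusted p = 0.149; 0.0187 with the block). Both had groups without overlap.

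**Figure D5:**
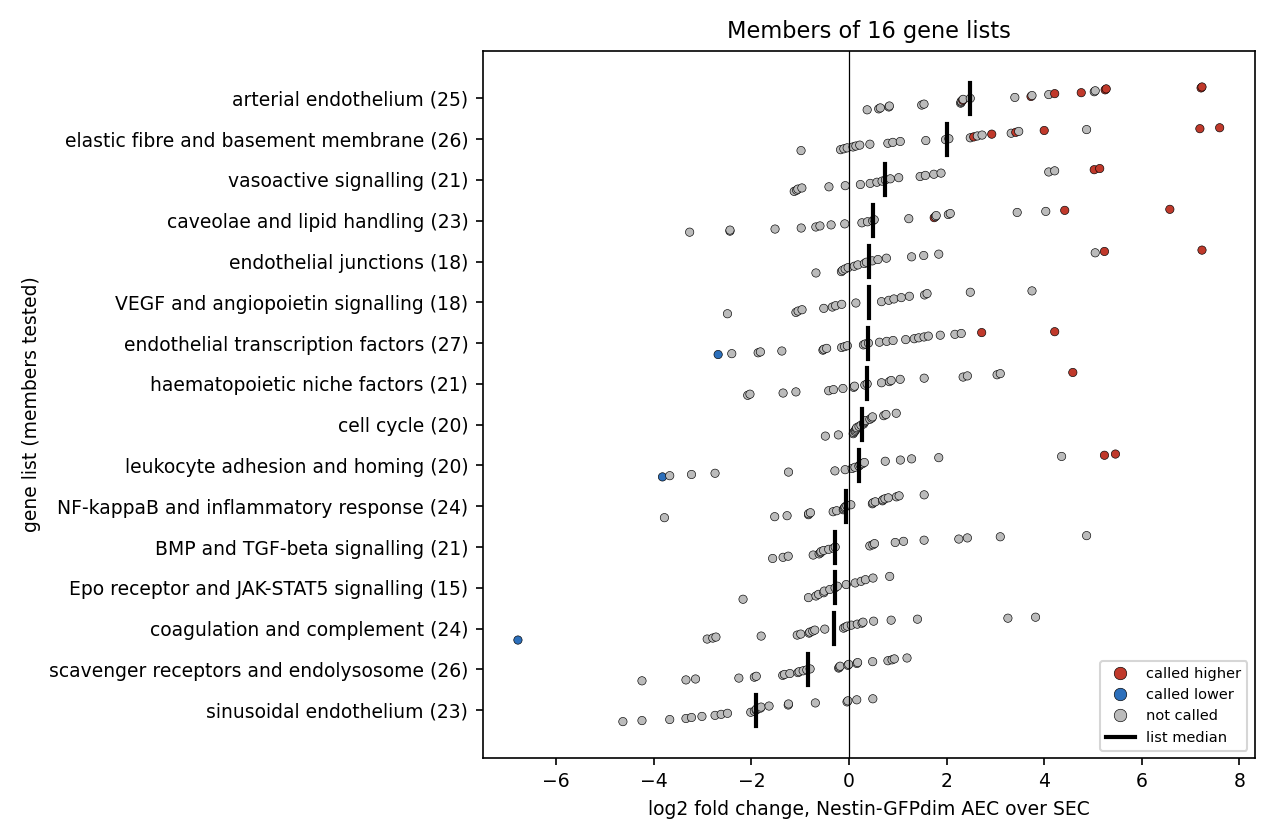
Log2 fold change of Nestin-GFPdim AECs over SECs (horizontal axis) of each tested member of 16 gene lists (vertical axis, ordered by median), with called members in red (higher) or blue (lower), others in grey, and a bar at the list median. The arterial list has the highest median (2.49) with 8 called members, and the sinusoidal list the lowest (-1.90) with 0.

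Outside these lists, the called genes of largest change and at least 10 RPKM in the higher group included genes of varied function. Rbp7, a retinol binding protein, had 100.2, 147 and 136 RPKM in Nestin-GFPdim AECs and 0.542, 1.02 and 0.150 RPKM in SECs (log2 fold change 6.37 ± 0.29, adjusted p = 0.00298). Lims2, an adaptor at integrin adhesions, had 100.5, 149.9 and 179.5 RPKM in Nestin-GFPdim AECs and 1.39, 0.842 and 0.469 RPKM in SECs (log2 fold change 6.23 ± 0.30, adjusted p = 0.00298). Both were even within Nestin-GFPdim AECs and were called in 18 of 19 other settings, the exception being only libraries 3 and 4. Cytl1, a secreted cytokine-like protein, had 70.3, 49 and 291 RPKM in Nestin-GFPdim AECs, against 0.190 RPKM in SEC replicate 1 and no read in SEC replicates 3 and 4 (log2 fold change 6.57 ± 0.64, adjusted p = 0.0145). Timp4, an inhibitor of matrix metalloproteinases, had 17.5, 70.9 and 95.6 RPKM in Nestin-GFPdim AECs, against 0.131 and 0.166 RPKM in SEC replicates 1 and 3 and no read in replicate 4 (log2 fold change 5.52 ± 0.61, adjusted p = 0.0187). Ly6c1, a surface protein of the Ly6 family, had 1067, 1765 and 2275 RPKM in Nestin-GFPdim AECs and 29.1, 67.1 and 22.8 RPKM in SECs (log2 fold change 5.48 ± 0.49, adjusted p = 0.0123), with the reservation on paralogs given for Ly6a. All of these rose without overlap.

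On the other side, Rarres2, the secreted protein chemerin, had no read in Nestin-GFPdim AEC replicate 1 and 5.47 and 4.08 RPKM in replicates 3 and 4, against 91.5, 125 and 83.6 RPKM in SECs (log2 fold change -4.95 ± 0.70, adjusted p = 0.0338). Sema3a, a secreted semaphorin, had no read in Nestin-GFPdim AEC replicate 1 and 6.22 and 1.40 RPKM in replicates 3 and 4, against 48.6, 142 and 63.4 RPKM in SECs (log2 fold change -4.89 ± 0.76, adjusted p = 0.0433; called in 7 of 19 other settings). Both fell, with Nestin-GFPdim AEC replicate 3 the highest of its group. Cxadr, a junction protein used as a receptor by coxsackieviruses and adenoviruses, had 0.788, 3.55 and 0.530 RPKM in Nestin-GFPdim AECs and 49.1, 79 and 51.4 RPKM in SECs (log2 fold change -4.68 ± 0.46, adjusted p = 0.0145; called in 15 of 19 other settings). Ptger2, a receptor of prostaglandin E2, had 2.02, 5.66 and 0.471 RPKM in Nestin-GFPdim AECs and 38, 53.3 and 41 RPKM in SECs (log2 fold change -3.85 ± 0.54, adjusted p = 0.0338). Gpr126, an adhesion G protein-coupled receptor, had 0.0992, 5.12 and 1.85 RPKM in Nestin-GFPdim AECs and 30.9, 52.1 and 32.9 RPKM in SECs (log2 fold change -3.85 ± 0.62, adjusted p = 0.0488; called in 8 of 19 other settings). These fell as well, as did Itih3 (log2 fold change -4.26 ± 0.51, adjusted p = 0.0231) and Sectm1a (log2 fold change -4.01 ± 0.62, adjusted p = 0.0431), whose reads may be shared with its paralog Sectm1b. In 51 of the 85 genes called lower, Nestin-GFPdim AEC replicate 3 was the highest of its group, and in 78 of the 107 called higher it was replicate 4. Over all 15441 tested genes, Nestin-GFPdim AEC replicate 3 was the highest in 5053 and replicate 4 in 5077.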

How the data were processed

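Reads were mapped by the authors with STAR, assigned to genes with HTSeq and scaled by TMM in edgeR 3.12.0, and log2 RPKM values of 17232 genes were deposited. Per the labels the build was mm9, but 99.9% of the 17094 genes found in GENCODE M21 overlapped their GRCm38 position there, so positions are GRCm38. The deposited log2 values held a prior of 0.25 reads; reads recovered from their steps were whole within 0.0001 reads for 155085 of 155088 values, the exceptions being 3 of Bmx. Bounds set against 3 reads in each library cover counting error only, since the kit has no molecular identifiers. Of the symbols, 21 had become dates and 4 were empty, and 22 were repaired through Ensembl identifiers.

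RPKM was computed from the deposited log2 values. The 6 libraries were compared by limma 3.58.1 (R 4.3.3) after 1 was added to RPKM and the log2 taken, with a variance trend and no block, over the 15441 genes that reached 0.1 RPKM in 3 or more libraries; fold changes of low genes are understated on this scale. A gene was called when its p, adjusted by Benjamini-Hochberg over all tested genes, was below 0.05. The deposited unit being log2 RPKM, a count model was not the main test, and recovered reads entered only the voom alternative. The numbers were taken to pair the libraries because deviations from the group means correlated by 0.78, 0.65 and 0.11 for libraries 1, 3 and 4 of the 2 groups; unlike numbers reached 0.28 (Nestin-GFPdim AEC 4 with SEC 3) and 0.18 (Nestin-GFPdim AEC 1 with SEC 4), and the labels share only a number. The fit was also run on simulated data with 200 changed genes, and no result given here rests on that run.

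Named genes are markers, genes the paper names, the 10 called genes of largest change in each direction with at least 10 RPKM and no overlap, and up to 4 called members of each of 25 lists (56 genes); others were added after their values were seen, and a few are not reported here. Members and lists were chosen with earlier results of these data known, and no set test was run. List medians with unread genes at their bound moved by 0. The alternatives were other added values and filters, quantile and median scaling, no trend, weights, the block, 3 groups, libraries 3 and 4, voom, deposited log2 values and leaving out each library. The Nestin-GFPbright AEC libraries were used only in the fit of 3 groups.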

Additional observations from a re-analysis of the deposited data

How the results depend on the processing

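The direction of all 192 called genes held in every setting that tested them, but the number called did not. Where libraries were left out, the direction was fixed in advance, since these genes did not overlap between the groups. The count was 363 with a weight per library (229 higher, 134 lower), 526 with the replicate block (238, 288), 330 with all 3 groups fitted together (132, 198), 102 with voom on recovered reads (71, 31) and 0 (0, 0) with only libraries 3 and 4. It was 268 with 0.1 added to RPKM (172 higher), 194 with 0.01 added (55 lower) and 135 on the deposited log2 values (35 lower). Leaving out 1 library gave 2 to 203 genes (2 to 157 higher, 0 to 76 lower). The higher share of calls was 55.7% as reported, 61.1% after quantile normalization and 60.8% after a shift to 1 median, and over all fits that called more than 4 genes it ran between 37.7% without Nestin-GFPdim AEC replicate 3 (46 of 122) and 85.3% without Nestin-GFPdim AEC replicate 4 (116 of 136). The cause of these shifts was not tested.

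The log2 fold change of Gja4 was 7.68 with only libraries 3 and 4 and did not pass; leaving out 1 library gave 6.75 to 7.48. That of Stab2 passed at -4.30 after a shift to 1 median, -3.75 with a weight per library, -4.24 with the replicate block and -4.24 with all 3 groups fitted together and -5.05 without Nestin-GFPdim AEC replicate 3; leaving out 1 library gave -5.05 to -3.51. That of Epor passed at -2.17 with the replicate block and -2.63 without Nestin-GFPdim AEC replicate 3; leaving out 1 library gave -2.63 to -1.89. Of the other genes followed through the settings, 3 changed sign: Icam1 to 0.17 without Nestin-GFPdim AEC replicate 1, Jag1 to -0.64 without Nestin-GFPdim AEC replicate 4, and Cdh5 to -0.084 without Nestin-GFPdim AEC replicate 3 and -0.014 without SEC replicate 1. Some genes of small change, such as Plvap, Jak2 and Stat5b, were not followed. Leaving out 1 library gave -2.0 to 0.17 for Icam1, -0.64 to 0.92 for Jag1 and -0.084 to 0.54 for Cdh5. The block ended no call among the named genes. The lower depth of Nestin-GFPdim AEC replicates 1 and 3 limits what their low values can show.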

Other observations

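Further called genes are given here, chosen after their values were seen. Efnb1, a relative of ephrin-B2, had 56.2, 60.3 and 75 RPKM in Nestin-GFPdim AECs and 7.96, 13.8 and 16.3 RPKM in SECs (log2 fold change 2.29 ± 0.29, adjusted p = 0.0265). Wnt5b, a secreted Wnt ligand, had 5.40, 8.98 and 7.75 RPKM in Nestin-GFPdim AECs and 0.608, 0.702 and 0.776 RPKM in SECs (log2 fold change 2.28 ± 0.27, adjusted p = 0.0228). Ackr3, a scavenging receptor of CXCL12, had 14.1, 29.9 and 46.1 RPKM in Nestin-GFPdim AECs and 0.771, 1.73 and 0.405 RPKM in SECs (log2 fold change 3.89 ± 0.48, adjusted p = 0.0257). All 3 rose in Nestin-GFPdim AECs, as did the homeobox gene Meox1 (log2 fold change 3.37 ± 0.27, adjusted p = 0.0111), the taurine transporter Slc6a6 (log2 fold change 4.11 ± 0.34, adjusted p = 0.0111) and the intermediate filament gene Vim (log2 fold change 2.18 ± 0.33, adjusted p = 0.0413; called in 8 of 19 other settings).

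On the SEC side, 2 genes of prostaglandin E2 were called: Ptger2 is described above, and Ptges, the synthase, had 2.11, 4.15 and 0.948 RPKM in Nestin-GFPdim AECs and 23.2, 47.4 and 22.3 RPKM in SECs (log2 fold change -3.26 ± 0.46, adjusted p = 0.0338). The monocarboxylate transporter Slc16a1 had 17.9, 26.2 and 17.1 RPKM in Nestin-GFPdim AECs and 70.4, 148 and 99 RPKM in SECs (log2 fold change -2.28 ± 0.33, adjusted p = 0.0350), and its relative Slc16a9 fell too (log2 fold change -3.48 ± 0.53, adjusted p = 0.0419; called in 7 of 19 other settings). Sirpa, the receptor of CD47, had 25.8, 22.7 and 9.36 RPKM in Nestin-GFPdim AECs and 104, 141 and 129 RPKM in SECs (log2 fold change -2.73 ± 0.39, adjusted p = 0.0348). Axl, a receptor tyrosine kinase that binds GAS6, had 8.15, 16.7 and 5.84 RPKM in Nestin-GFPdim AECs and 47.6, 70.7 and 49.4 RPKM in SECs (log2 fold change -2.44 ± 0.39, adjusted p = 0.0452; called in 7 of 19 other settings). St6gal1, a sialyltransferase, had 7.29, 7.97 and 5.87 RPKM in Nestin-GFPdim AECs and 30.3, 36.1 and 25.3 RPKM in SECs, both groups being even (log2 fold change -1.97 ± 0.22, adjusted p = 0.0211). Reg3g, a secreted lectin, had no read in any Nestin-GFPdim AEC library and 5.49, 16.2 and 8.92 RPKM in SECs. Set against 3 reads in each Nestin-GFPdim AEC library, it was at least 136-fold lower there, and without SEC replicate 3 at least 96.2-fold. The potassium channel subunit Abcc9 just missed the threshold, with 9.08, 33.1 and 8.99 RPKM in Nestin-GFPdim AECs and 110.0, 174 and 119 RPKM in SECs (log2 fold change -3.13 ± 0.52, adjusted p = 0.0503; 0.0197 with the block), and Kcnj8, the pore of the channel, had 39, 321 and 42.3 RPKM in Nestin-GFPdim AECs and 308, 659.8 and 422 RPKM in SECs, with overlap in Nestin-GFPdim AEC replicate 3 (log2 fold change -2.42 ± 0.84, adjusted p = 0.301).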
